A study of Mus musculus with 10 samples.

Results

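Granins are the acidic proteins that fill dense-core vesicles, the storage granules from which endocrine cells and neurons release peptide hormones and amines on demand. They bind calcium, condense in the trans-Golgi network together with the hormones they are packed with, and are cut by prohormone convertases into smaller peptides, some of them active. In the gut epithelium their classical site is the enteroendocrine cell, and chromogranin A is the textbook marker of that lineage, while neurons make the same proteins for their own large vesicles. Transcripts of 8 genes were followed here, chosen by name as members of the granin family or granin-like cargo: Chga, Chgb, Scg2, Scg3, Scg5, Vgf, Pcsk1n and Resp18. The table lists 54532 genes, 15703 were expressed highly enough to be tested, and all 8 granins were among them.

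The RNA came from small intestines of 5 litter-matched Gucy2c-GFP mice, 10 weeks old and of the CD1/ICR strain, a GENSAT reporter line in which the promoter of Gucy2c drives green fluorescent protein. Guanylyl cyclase C, the product of Gucy2c, is the intestinal receptor for guanylin and uroguanylin. From each mouse, 20000 live cells with high GFP fluorescence (GUCY2Chi) and 20000 with medium fluorescence (GUCY2Cmed, the bulk of the epithelium) were sorted for mRNA sequencing. This gave 10 libraries, 5 in each group, and the medium libraries also carry the label Lo. The library names hold the numbers 2, 7, 12, 14 and 15 in both groups, and each number is read here as a mouse. Every animal carried the reporter and none was treated, so the groups differ by fluorescence gate within the same mice, and the gate was not a cell type marker.

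Library totals ran from 13090212 to 13520800 counts in GUCY2Chi and from 10903958 to 15307932 counts in GUCY2Cmed cells. Gucy2c itself had 1322 ± 526 cpm (counts scaled to library size with TMM factors, SD, n = 5 mice) in GUCY2Chi and 404 ± 64.7 cpm (SD, n = 5) in GUCY2Cmed cells, and was higher in 5 of 5 mice. All 18 genes of an enteroendocrine marker list were higher in GUCY2Chi cells, with a summed level of 35759.8 to 107803 cpm against 66.6 to 244 cpm. The 14 enterocyte markers summed to 54540.3 to 73573 cpm in GUCY2Cmed libraries and to 3325 to 4332 cpm in the GUCY2Chi libraries of mice 2, 7 and 14. In those of mice 12 and 15, which stand apart on this list, they summed to 30419 and 30705 cpm. Paneth markers summed to 45665 and 26851 cpm in the GUCY2Chi libraries of mice 2 and 14, 6181 to 10361 cpm in the others and 6539 to 15358 cpm in GUCY2Cmed libraries. Goblet markers summed to 3055 to 23458 cpm in GUCY2Chi libraries, highest in mouse 2, and 4910 to 13101 cpm in GUCY2Cmed libraries. A list of 18 forebrain neuron genes, none of them at 0 in all libraries of a group, summed to 116 to 988 cpm in GUCY2Cmed and 271 to 1767 cpm in GUCY2Chi libraries, and 1 of the 18 was called higher. Of 9 enteric neuron markers, which summed to 4.42 to 146 cpm in GUCY2Cmed and 80.7 to 315 cpm in GUCY2Chi libraries, Hand2 had no count in either group and Chat had none in GUCY2Cmed libraries. These values return below wherever they move with a granin.

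The positions in the table are those of the mouse build GRCm38, on which the granin genes are scattered. Chga, for chromogranin A, lies at chr12:102554969-102565028 on the plus strand and Chgb, for chromogranin B, at chr2:132781278-132795079 on the plus strand. The secretogranin genes Scg2 (chr1:79434669-79440120), Scg3 (chr9:75643189-75684056) and Scg5 (chr2:113776362-113829121) are all on the minus strand. Vgf lies at chr5:137026392-137033351 on the plus strand, Pcsk1n at chrX:7919822-7924410 on the plus strand and Resp18 at chr1:75272199-75278415 on the minus strand. In the table's intervals, 3 of them overlap a gene on the opposite strand (Gm37871, Eras and Gm28902), and those 3 had 3, 0 and 4 counts over all 10 libraries, against 21727 for Scg3, 26243 for Pcsk1n and 28324 for Resp18.

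Chga, Chgb and Scg2 moved most between the groups, and the 100 bases before their RefSeq start sites (GRCm38.p6) are shown because each holds the cAMP response element or its first 5 letters. This element, TGACGTCA, is bound by CREB and related factors and is known from granin promoters. Capitals mark the match, and each line is written 5′ to 3′ on the strand of the gene, at chr12:102554841-102554940 (plus), chr2:132781542-132781641 (plus) and chr1:79440027-79440126 (minus).
Chga: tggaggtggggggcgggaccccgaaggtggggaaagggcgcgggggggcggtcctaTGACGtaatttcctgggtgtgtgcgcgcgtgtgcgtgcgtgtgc
Chgb: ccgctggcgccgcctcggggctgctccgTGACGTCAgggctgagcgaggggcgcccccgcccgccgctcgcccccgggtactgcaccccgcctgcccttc
Scg2: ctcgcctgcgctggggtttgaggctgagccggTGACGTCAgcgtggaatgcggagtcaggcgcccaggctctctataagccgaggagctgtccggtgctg

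In windows of 300 bases (250 before and 50 after the start), which RefSeq provided for 7 of the 8 genes (all but Vgf), the full palindrome began 72 bases before the start of Chgb and 68 bases before that of Scg2, and 1.79% of all 32851 windows held it on either strand. The shorter TGACG, which is also part of the palindrome, was in 5 of the 7 windows (Chga, 44 bases before the start, Chgb, Scg2, Scg3, 30 bases before the start, and Scg5) against 20.8% of all windows. The E-box CANNTG was in 6 of 7 windows (72.3% of all), the GC box GGGCGG in 4 of 7 (35.7%) and TATAAA in 1 of 7 (13.6%, in Chga after the start). The E-box form CAGATG, which also counts among the CANNTG matches, was in 0 of 7 (17.2% of all). The table's gene intervals of Chgb and Scg2 begin upstream of these RefSeq starts, so the distances hold for the RefSeq models. A match is a string of letters, and no binding was measured.

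The first question was whether GUCY2Chi cells differ from bulk GUCY2Cmed epithelium in granin transcripts. In GUCY2Chi cells 7 of the 8 granin genes passed as higher with an adjusted p under 0.01 (edgeR quasi-likelihood test, Benjamini-Hochberg over all 15703 genes), and all 8 fold changes were above 0. Over all genes tested, 2186 were called higher (13.9%) and 1381 lower (8.79%), or 2910 and 557 with library sizes in place of TMM factors. The median log2 fold change of the granins was 6.25, against 0.09 over all genes. In each of the 8 genes every GUCY2Chi library lay above every GUCY2Cmed library, which held for 16.7% of all genes tested. With the mouse as a replicate block, 6 of 8 were higher in edgeR, where 8.24% of all genes were, and 7 of 8 in limma-voom, where 11.6% were. Since these are bulk samples, more granin-making cells in the gate and more granin RNA per cell cannot be told apart.

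**Figure D1:**
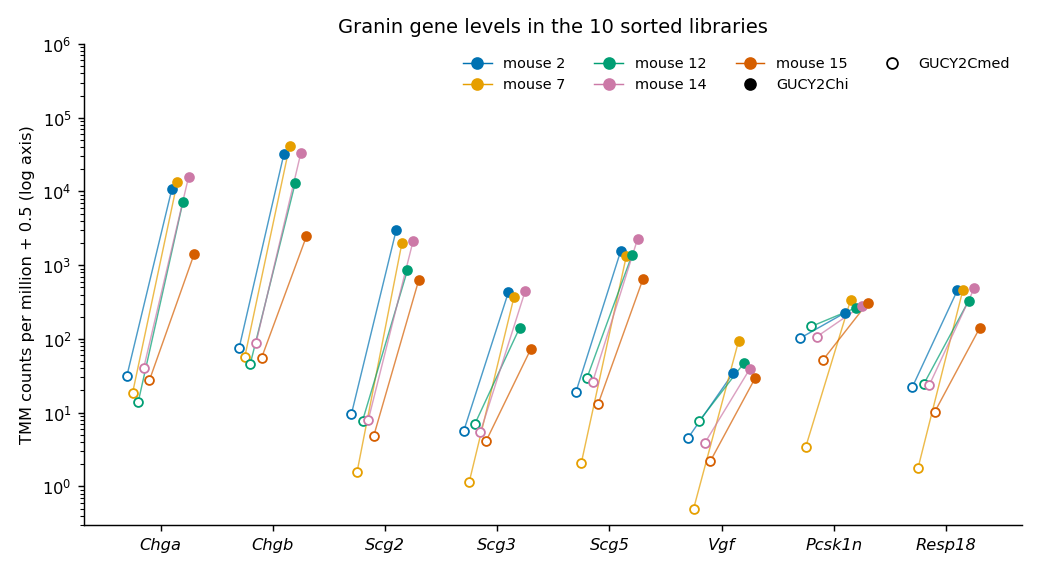
TMM-scaled cpm plus 0.5 on a log axis for the 8 granin genes, with open circles for the GUCY2Cmed and filled circles for the GUCY2Chi library of each mouse (colour), joined by a line. Every filled circle lies above every open circle of the same gene, mouse 15 has the lowest filled circle in 7 of 8 genes, and mouse 7 has the lowest open circle in 6 of 8.

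Together the 8 genes took 4.27% ± 2.74 (SD, n = 5 mice) of all counts in GUCY2Chi libraries and 0.0199% ± 0.00875 (SD, n = 5) in GUCY2Cmed libraries. Their summed level in GUCY2Chi cells was 49023, 60025, 23346, 54653 and 5725 cpm in mice 2, 7, 12, 14 and 15 (the order used throughout), and in GUCY2Cmed cells it was 266, 81.4, 280.3, 299 and 165 cpm. The lowest GUCY2Chi sum, that of mouse 15, was thus far above the highest GUCY2Cmed sum, and mouse 12 was the next lowest.

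Chromogranins A and B, the structural cargo that drives granule condensation, were the most abundant per gene length in GUCY2Chi cells. Chgb had 32643, 41850.3, 13050.4, 33229 and 2467 cpm in GUCY2Chi libraries and 74.7, 56.0, 45.7, 87.1 and 54.9 cpm in GUCY2Cmed libraries. Per kilobase of gene length it ranked 3rd of all genes in the GUCY2Chi library of mouse 7, 5th in mouse 14, 6th in mouse 2, 14th in mouse 12 and 45th in mouse 15, and by the authors' FPKM, which rest on another length, 5th, 9th, 9th, 20th and 96th in the same mice. Its log2 fold change was 8.60 (SE 0.83, adjusted p = 2.96e-05 from edgeR). Chga had 10677, 13609, 7298, 15797 and 1428 cpm against 31.1, 17.8, 13.3, 39.9 and 26.8 cpm, a log2 fold change of 8.57 (SE 0.75, adjusted p = 1.77e-05 from edgeR). Both genes had their lowest GUCY2Chi level in mouse 15, at 7.49% (Chgb) and 11.8% (Chga) of the median of the other 4 mice. Within mice the ratio of the groups for Chgb was 437, 747, 286, 381 and 45.0, and for Chga 344, 764, 551, 396 and 53.3. By fold change these 2 genes ranked 65th and 66th of the 15703 genes.

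The secretogranins followed. Scg2 encodes secretogranin II, the precursor of secretoneurin, and had 3004, 1971, 854, 2123 and 623 cpm in GUCY2Chi libraries against 8.99, 1.04, 7.27, 7.36 and 4.36 cpm. It was higher with a log2 fold change of 8.20 (SE 0.73, adjusted p = 1.88e-05 from edgeR) and ranked 81st of all genes. Its GUCY2Chi levels were 117 to 1888 times the GUCY2Cmed level of the same mouse, with the highest ratio in mouse 7, where the GUCY2Cmed library had only 13 counts.

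Scg3 encodes secretogranin III, which tethers chromogranin A to the cholesterol-rich granule membrane. Its levels were 432, 373, 141, 449 and 72.8 cpm against 5.06, 0.642, 6.48, 4.96 and 3.59 cpm, a log2 fold change of 6.14 (SE 0.69, adjusted p = 8.75e-05 from edgeR). The GUCY2Chi library of mouse 15 was again the lowest and that of mouse 12 the next. Scg5 encodes the chaperone of the convertase made by Pcsk2, and had 1551, 1323, 1363, 2250.2 and 657 cpm against 18.3, 1.61, 29.2, 25.6 and 12.8 cpm. The log2 fold change was 6.35 (SE 0.71, adjusted p = 7.83e-05 from edgeR), and the 5 GUCY2Chi levels spread by 3.43 times from lowest to highest, against 17.0 times for Chgb.

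The granin-like genes changed less. Resp18, a granule protein of endocrine cells and neurons related to the lumenal part of the granule receptor Ptprn, had 456, 465, 327, 484 and 141 cpm in GUCY2Chi libraries and 21.9, 1.28, 23.8, 23.1 and 9.84 cpm in GUCY2Cmed libraries. It was higher with a log2 fold change of 4.55 (SE 0.67, adjusted p = 5.14e-04 from edgeR). Vgf, a nerve growth factor-inducible precursor of several neuropeptides, was the least abundant member per gene length, at 33.6, 92.5, 46.9, 38.5 and 29.2 cpm, against 4.03, 0, 7.20, 3.38 and 1.71 cpm. Here the GUCY2Chi library of mouse 7 stood above the other 4, and in the GUCY2Cmed library of the same mouse Vgf had 0 counts, so that its ratio in that mouse was at least 384 (0 set to 3 counts). The log2 fold change of Vgf was 3.87 (SE 0.75, adjusted p = 0.00249 from edgeR). Blocking on the mouse lost its call in edgeR (log2 fold change 4.01, adjusted p = 0.0160) and kept it in limma-voom (3.89, adjusted p = 0.00934), and without the GUCY2Cmed library of mouse 15 the adjusted p was 0.0104.

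Pcsk1n, whose product proSAAS inhibits the convertase made by Pcsk1, was the exception. It had 226, 341, 265, 282 and 307 cpm in GUCY2Chi libraries, the most even level of the 8 genes (coefficient of variation 15.3%, against 38.6% to 66.0% in the others), and mouse 15 was not low. In GUCY2Cmed libraries it had 102, 2.97, 147, 107 and 50.8 cpm, a highest-to-lowest range wider than that of any other member with counts in all 5 libraries. The groups did not overlap, but the lowest GUCY2Chi level was only 1.53 times the highest GUCY2Cmed level, and the log2 fold change of 1.79 (SE 0.66) did not pass the threshold (adjusted p = 0.0485 from edgeR). It did not pass with the replicate block either (adjusted p = 0.0832 in edgeR and 0.0388 in limma-voom). Without the GUCY2Cmed library of mouse 7 it passed (log2 fold change 1.48, adjusted p = 0.00337), and in the other 9 fits that left out 1 library it did not. An exact two-sided permutation test on log2(cpm + 0.5), taken gene by gene, gave p = 0.00794 for each of the 8 granins, the smallest value that 5 against 5 libraries allow. That test exchanges libraries between mice, and within the 5 mice the exact permutation p was 0.0625 for each gene, the smallest value that 5 pairs allow, with GUCY2Chi above GUCY2Cmed in 5 of 5 mice.

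**Figure D2:**
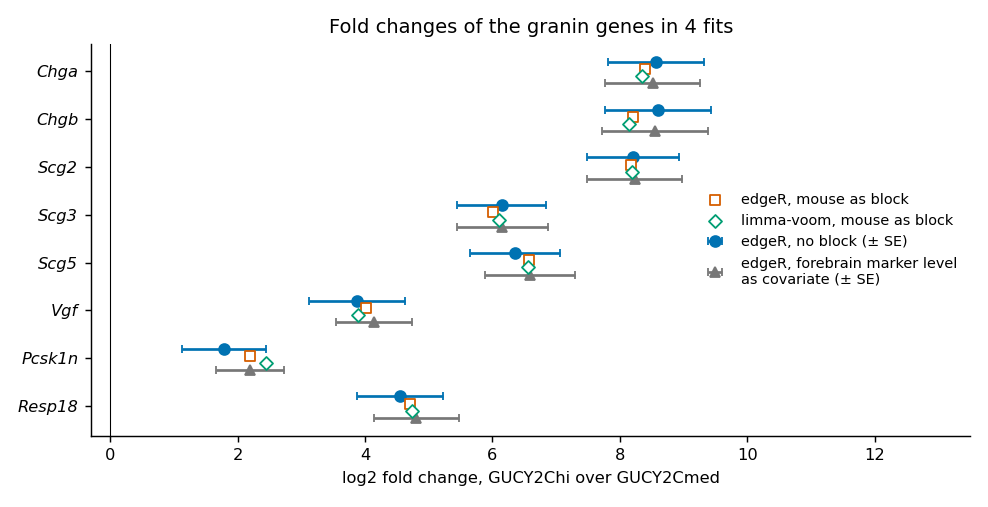
Log2 fold change of each granin gene, GUCY2Chi over GUCY2Cmed, in 4 fits, with standard errors as bars for the 2 edgeR fits without a block. All points lie right of 0, from Chgb at 8.60 to Pcsk1n at 1.79 in edgeR without a block, and in all 4 fits Chga, Chgb and Scg2 have the largest values and Pcsk1n the smallest.

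In GUCY2Cmed libraries the members did not share 1 pattern over the mice. Scg3, Scg5, Vgf, Pcsk1n and Resp18 were lowest in mouse 7, next lowest in mouse 15 and highest in mouse 12. The summed forebrain neuron genes had the same lowest, next and highest mice (769.7, 116, 988, 778 and 437 cpm). So did the enteric neuron markers (118, 4.42, 146, 112 and 55.2 cpm) and a list of oligodendrocyte and astrocyte markers (73.7, 35.4, 91.0, 72.7 and 55.7 cpm). Chga and Chgb were lowest in mouse 12 and highest in mouse 14. Scg2 was lowest in mouse 7, next lowest in mouse 15 and highest in mouse 2, as was the enteroendocrine list (244, 66.6, 213, 203 and 161 cpm). The enteroendocrine list thus shared its lowest and next lowest mice with Scg3, Scg5, Vgf, Pcsk1n and Resp18, but not its highest. A list of enterochromaffin markers was lowest in mouse 12 and highest in mouse 2 (729, 613, 393, 566 and 655 cpm). The part of each cell type in these granin levels was not tested. Against the summed forebrain list, the ratio over the GUCY2Cmed libraries spanned 1.48 times from lowest to highest for Scg3 and 1.59 times for Scg2, though both genes had few counts in mouse 7 (8 and 13). For Pcsk1n the same ratio spanned 5.82 times, at 0.0256 in mouse 7 and 0.116 to 0.149 in the other 4. The ratio of Pcsk1n to Nrgn, singled out from that list after the values were seen and a postsynaptic protein gene of forebrain neurons at 395, 8.91, 521, 387 and 176 cpm, was 0.259, 0.333, 0.283, 0.277 and 0.289 in the GUCY2Cmed libraries, a span of 1.29 times while Pcsk1n itself spanned from 2.97 to 147 cpm. Nrgn was itself 7.69% of the forebrain list in mouse 7 and 40.2% to 52.7% in the other 4. In GUCY2Chi libraries the ratio of Pcsk1n to Nrgn ran from 0.329 in mouse 15 to 12.9 in mouse 14. For Chgb the ratio to Nrgn spanned 71.7 times over the GUCY2Cmed libraries. Against the summed enteroendocrine list, the ratio over the GUCY2Cmed libraries spanned 2.35 times for Scg2, 3.16 for Scg3, 3.92 for Chgb and 15.5 for Pcsk1n. Over the GUCY2Chi libraries that ratio spanned 1.28 times for Scg5, 1.48 for Resp18, 3.60 for Pcsk1n and 7.63 for Chgb.

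With the forebrain marker level of each library as a covariate, 8 of 8 granins were higher, where 17.4% of all genes tested were. In that fit Pcsk1n had a log2 fold change of 2.20 (SE 0.53, adjusted p = 0.00623) and Vgf one of 4.14 (SE 0.60, adjusted p = 3.97e-04). The estimates of the other 6 genes were between 4.81 and 8.54 and differed from those without the covariate by less than their standard errors. What share of the GUCY2Cmed level of any granin came with the RNA that carries the forebrain markers was not tested.

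**Figure D3:**
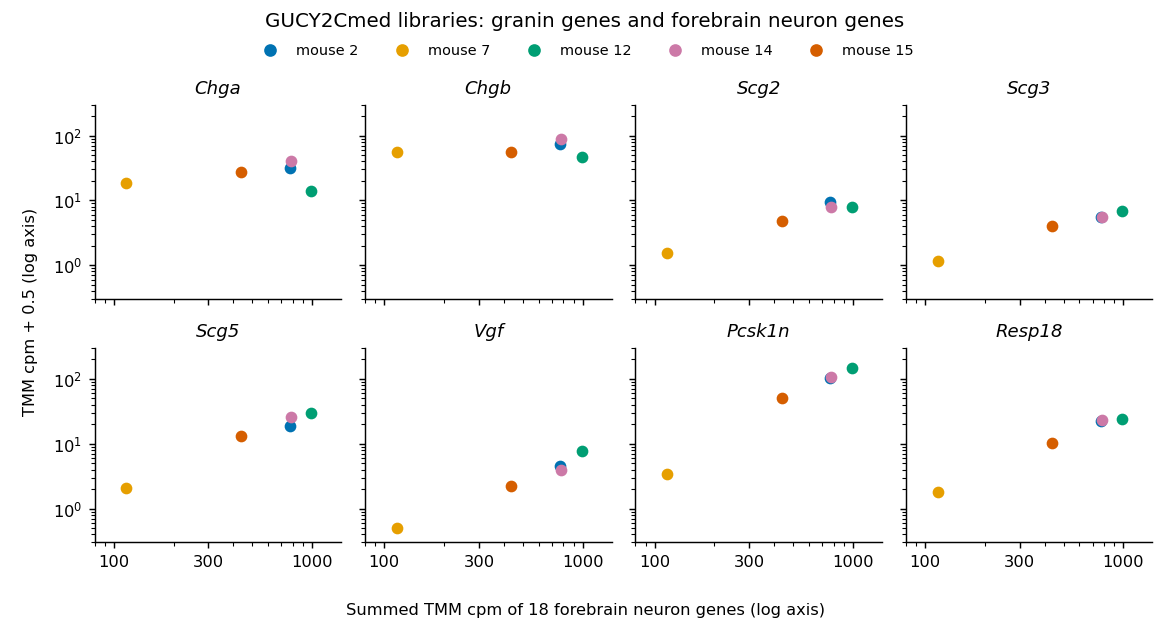
GUCY2Cmed libraries: cpm plus 0.5 of each granin gene (log axis) against the summed cpm of 18 forebrain neuron genes in the same library (log axis), 1 point per mouse. Pcsk1n, Resp18, Scg5, Scg3 and Vgf are lowest in mouse 7 (116 cpm of forebrain genes) and highest in mouse 12 (988 cpm), whereas Chga and Chgb are lowest in mouse 12.

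In GUCY2Chi libraries 7 of 8 granins (all but Pcsk1n) were lowest in mouse 15, at 7.49% (Chgb) to 68.4% (Vgf) of the median of the other 4 mice, and Pcsk1n was at 112%. In the same library the enteroendocrine list was also lowest (35759.8 cpm against 78093 to 107803 in the others), the enterocyte list highest (30705 cpm) and the forebrain list highest (1767 cpm). Without both libraries of mouse 15, a check added after the data were seen, 7 of 8 granins were higher, where 12.9% of all genes tested were. Without mice 12 and 15 altogether 6 of 8 were, where 11.7% of all genes were, since Vgf (log2 fold change 4.49, adjusted p = 0.0116) no longer passed. The part of these other cell types in the low granin level of mouse 15 was not tested.

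The second question was whether the mixture of granin transcripts differed between the groups. For this the scaled counts were divided by the table's gene lengths, which gives cpm per kilobase. On that scale Chgb had 8996 ± 5941 (SD, n = 5 mice) and Chga 3542 ± 2049 in GUCY2Chi cells, followed by Scg5 at 911 ± 364, Scg2 at 682 ± 389, Resp18 at 363 ± 140.0, Scg3 at 107 ± 63.7, Pcsk1n at 129.6 ± 19.8 and Vgf at 16.2 ± 8.62, in the order of their medians. Chga and Chgb together made up 59.2% to 89.4% (median 84.5%) of the summed granin transcripts. Neighbours in this order overlapped in range except Pcsk1n and Vgf, and within libraries Chgb was above Chga in 5 of 5, Scg5 above Scg2 in 4 of 5 and Scg3 above Pcsk1n in 2 of 5. The order of the top pair depends on the length used: in the FPKM values of the authors Chgb was above Chga in only 2 of 5 GUCY2Chi libraries, and both together made up 60.1% to 88.3%. Of the lower pairs, Scg2 was above Resp18 in 5 of 5 libraries per kilobase but in 3 of 5 by FPKM, and Scg3 above Pcsk1n in 4 of 5 by FPKM.

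In GUCY2Cmed cells the order was led by Pcsk1n at 37.4 ± 25.5 cpm per kilobase (SD, n = 5 mice), with a median above that of Resp18 (15.5 ± 9.70), Chgb (23.2 ± 6.14), Scg5 (11.2 ± 6.97) and Chga (9.35 ± 3.84). Scg2 (2.31 ± 1.25), Scg3 (1.51 ± 0.807) and Vgf (1.10 ± 0.908) were lowest, and neighbours overlapped in range except Chga and Scg2. By the authors' FPKM Pcsk1n and Resp18 still led by median, but Chga came 3rd, Scg5 4th and Chgb 5th, and Scg2 was above Scg3 in 0 of 5 libraries where per kilobase it was above in 5 of 5. Pcsk1n held 4.34% to 48.7% (median 35.0%) of the granin sum, against 0.551% to 5.84% (median 0.688%) in GUCY2Chi libraries. Chga and Chgb together held 15.6% to 86.3% (median 33.1%). The GUCY2Cmed library of mouse 7 had a mixture unlike the other 4, with 65.6% Chgb and 20.7% Chga, or 47.3% and 37.7% by FPKM. Among GUCY2Cmed libraries it had the lowest sums of the forebrain, enteric neuron and enteroendocrine lists.

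**Figure D4:**
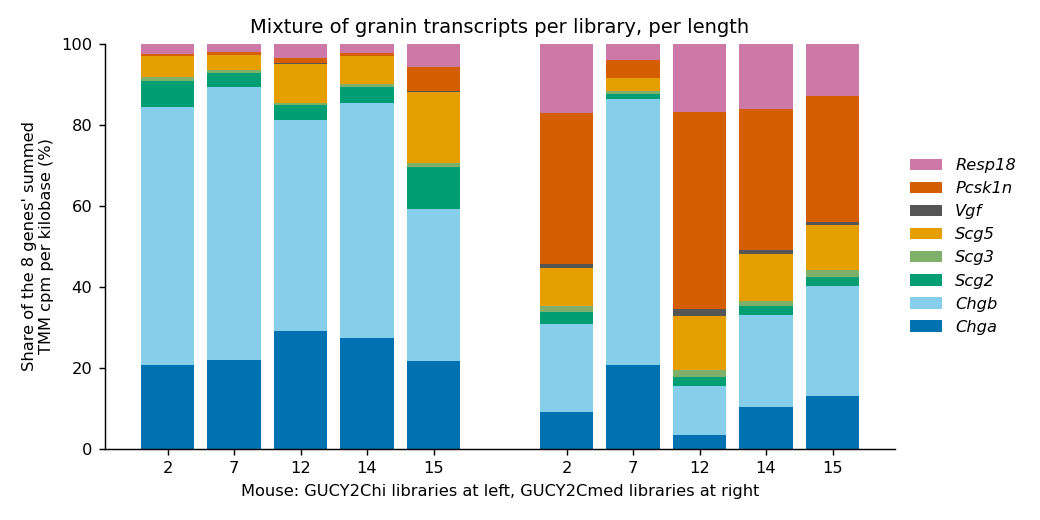
Share of each granin gene in the summed TMM cpm per kilobase of the 8 genes (%), per library, with GUCY2Chi libraries at left and GUCY2Cmed libraries at right. Chga and Chgb make up 59.2% to 89.4% of each GUCY2Chi bar, and Pcsk1n is between 31.2% and 48.7% in every GUCY2Cmed bar but that of mouse 7 (4.34%).

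Each gene's log2 ratio to Chga, per kilobase, was compared between the groups in an exact two-sided permutation test over libraries, with 7 ratios compared and p left unadjusted. This test ignores that the libraries are paired by mouse. Within mice no p under 0.0625 is possible with 5 pairs, so none of the 7 ratios could pass there. The ratio of Chgb to Chga was 3.08, 3.09, 1.80, 2.12 and 1.74 in GUCY2Chi and 2.42, 3.16, 3.47, 2.20 and 2.06 in GUCY2Cmed libraries, and the difference of -0.17 on the log2 scale was within the spread between mice (exact permutation p = 0.500). The ratio of Scg2 to Chga also differed by less than the spread (-0.17, exact permutation p = 0.786), and that of Scg5 by -1.61 (exact permutation p = 0.0794). Relative to Chga, GUCY2Chi cells had less Scg3 (log2 difference -2.36, exact permutation p = 0.00794), Vgf (-4.23, p = 0.00794), Resp18 (-3.41, p = 0.0159) and Pcsk1n (-5.75, p = 0.0159). The same 4 ratios had p under 0.05 with the authors' FPKM (each exact permutation p = 0.0159), and without the GUCY2Cmed library of mouse 7 Scg5 joined them (-2.17, p = 0.0159). In the exact permutation within mice, with 0.5 cpm added to each level, all 5 of these ratios had p = 0.0625. With that addition they were lower in GUCY2Chi cells in 5 of 5 mice. For Scg5 this depends on the addition, since without it the ratio in mouse 7 was 0.171 in GUCY2Chi and 0.158 in GUCY2Cmed cells. Scg3, Scg5, Vgf, Pcsk1n and Resp18 are the genes that ordered the GUCY2Cmed libraries of mice 7, 15 and 12 as the forebrain and enteric neuron markers did. The enteroendocrine list was also lowest in mouse 7 and next lowest in mouse 15, but highest in mouse 2. The part of any of these marker lists in the mixture was not tested.

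The granins are loaded, cut and released together with many other proteins, and the rest of the dense-core vesicle pathway was read from 6 lists. Of 78 genes, 74 were tested, of which 41 were higher and 2 lower in GUCY2Chi cells at an adjusted p under 0.01, and with the replicate block in edgeR the numbers were 35 and 1. Over all genes tested 13.9% were higher and 8.79% lower, or 8.24% and 4.96% with the block, and the counts of each list are to be read against these shares. The lists were written with earlier results of these data known.

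**Figure D5:**
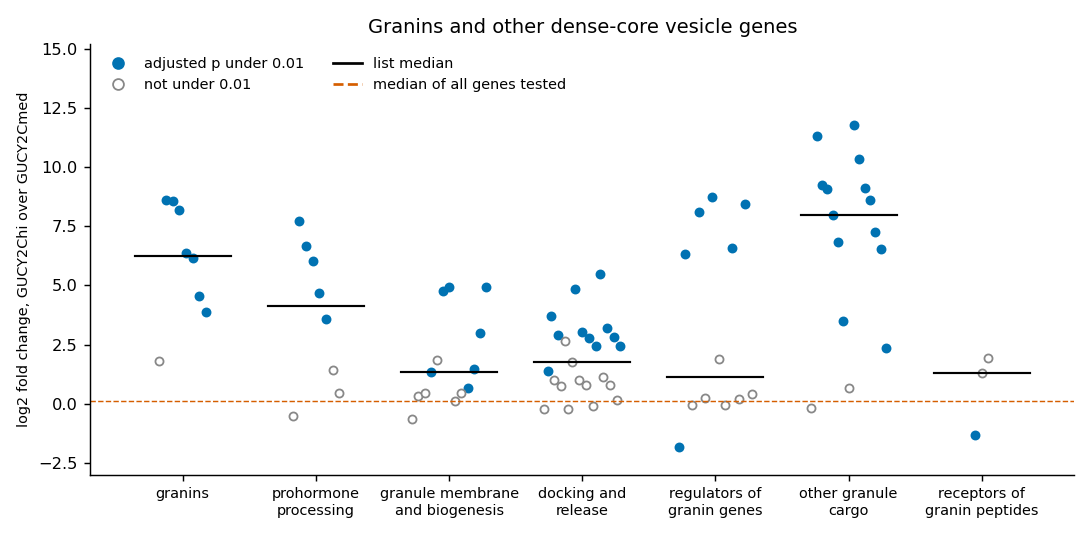
Log2 fold change of each tested gene, GUCY2Chi over GUCY2Cmed, by list, with filled points for an adjusted p under 0.01, a black line at each list's median and a dashed line at the median of all genes tested (0.09). The list medians are 6.25 for the granins, 4.15 for processing enzymes, 1.34 for granule membrane genes, 1.78 for release genes, 1.14 for regulators, 7.99 for other cargo and 1.31 for receptors.

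Of the 8 processing enzymes that cut and finish granins and prohormones, 5 were higher. Qpct, which closes the amino terminus of peptides as pyroglutamate, had 398 ± 217 cpm (SD, n = 5) against 1.86 ± 0.551 cpm, a log2 fold change of 7.73 (SE 0.48, adjusted p = 3.25e-06 from edgeR). Pcsk1, the convertase that proSAAS inhibits, had 634 ± 268 against 6.25 ± 1.74 cpm, a log2 fold change of 6.67 (SE 0.43, adjusted p = 3.76e-06). Cpe, which trims the basic residues left by the convertases, Pam, which amidates peptides, and Ctsl, which also cuts prohormones, had log2 fold changes of 6.03, 4.70 and 3.59. Pcsk2, the partner of the Scg5 product, had 19.0 ± 7.77 against 6.98 ± 4.60 cpm and did not pass (log2 fold change 1.44, adjusted p = 0.0667). Neither did Cpd (0.44, adjusted p = 0.133) or Furin (-0.51, adjusted p = 0.273). Thus of the 2 convertases with a binding partner among the granins, Pcsk1 was higher while its inhibitor Pcsk1n was not called, and Scg5 was higher while its partner Pcsk2 was not called. These pairs were not tested against each other.

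Of 13 tested granule membrane and biogenesis genes 7 were higher, or 6 with the replicate block in edgeR. The vesicular monoamine transporters Slc18a1 (log2 fold change 4.76) and Slc18a2 (4.92), the granule receptor phosphatase Ptprn2 (4.92) and the islet autoantigen Ica1 (3.01) had the smallest adjusted p. Of 23 genes for docking and release 11 were higher, but only 5 with the replicate block in edgeR. The first 4 were Rph3al (log2 fold change 3.71), a Rab effector of granules, Syt13 (5.49), an atypical synaptotagmin, and the granule GTPases Rab3b (4.84) and Rab3d (2.77).

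Of 12 tested regulators of granin genes 5 were higher and 1 lower, or 6 and 1 with the replicate block in edgeR. The 5 called higher without the block are all in the enteroendocrine marker list as well. Pax6, Nkx2-2, Isl1 and Neurod1, all transcription factors of the endocrine lineage, had log2 fold changes of 8.09, 6.58, 8.74 and 8.45. The 1 lower gene, named after its value was seen, was Rest, the repressor that silences neuronal and granin genes in other cells, at 3.64 ± 1.14 cpm (SD, n = 5 mice) in GUCY2Chi and 13.1 ± 4.72 cpm in GUCY2Cmed cells. Its log2 fold change was -1.85 (SE 0.31, adjusted p = 0.00122 from edgeR, and 0.00800 with the replicate block), and GUCY2Chi was lower in every mouse. Creb1, whose product binds the palindrome found before Chgb and Scg2, had 16.0 ± 1.48 against 13.8 ± 0.865 cpm and did not pass (log2 fold change 0.21, adjusted p = 0.278). Egr1, an immediate early gene singled out here after its value was seen, had 307 ± 515 against 83.6 ± 136 cpm and was higher in 5 of 5 mice. It did not pass without a block (log2 fold change 1.88, adjusted p = 0.243) and passed with it (1.64, adjusted p = 0.00334 in edgeR and 0.00157 in limma-voom).

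The list of other granule cargo held 15 genes, 8 of which are also in the enteroendocrine marker list, and 13 were higher. Among them Scgn, a calcium sensor rather than stored cargo, had 906 ± 457 cpm against 1.64 ± 0.487 cpm (log2 fold change 9.10). The hormone genes Sct, Pyy and Sst had log2 fold changes of 9.07, 11.77 and 6.82. Nucb1 (-0.18, adjusted p = 0.531) and Dkk3 (0.66, adjusted p = 0.510) did not pass. Among receptors of granin-derived peptides, Gpr171 and Gpr83, described for proSAAS peptides, were each under 1 cpm on average in both groups and did not pass (adjusted p of 0.210 and 0.187), and C3ar1 was too low to be tested. C1qbp, a mitochondrial protein also described as binding a Vgf peptide, was lower at 66.2 ± 21.4 against 168 ± 56.5 cpm (log2 fold change -1.34, adjusted p = 0.00320). The replicate block lost this call in edgeR (adjusted p = 0.0150) and kept it in limma-voom (adjusted p = 0.00839).

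Among 9969 genes with a mean of at least 5 cpm, those with the pattern most like each granin were named by Pearson's r of log2(cpm + 0.5) over the 10 libraries, which include both groups and share mice, so r is a description of these libraries. Closest to Chga were Sh3kbp1, Ucn3 and Azin2 (r of 0.997, 0.996 and 0.996), and closest to Chgb were Tmem44, Tle6 and Kcnh6 (0.997, 0.996 and 0.995). For Scg2 they were Tpst1, Igfbp7 and Syt13 (0.998, 0.996 and 0.996), and for Scg3 Syt13, Otulinl and Cxxc5 (0.995, 0.995 and 0.995). Scg5 was closest to Cck, Cpe and Gng4 (0.998, 0.997 and 0.997), and Resp18 to 1500009L16Rik, Gdap1l1 and Lrp11 (0.998, 0.998 and 0.996). Vgf was closest to Megf9, Rgs7 and Syt7 (0.990, 0.990 and 0.989). Pcsk1n was closest to Snap25, Syn2 and Bex2 (0.999, 0.998 and 0.997). Of these, Snap25 had 84.3, 2.41, 115, 86.4 and 44.4 cpm in GUCY2Cmed libraries, with the same lowest and highest mice as Pcsk1n and the forebrain list. That trait was not particular to the genes closest to Pcsk1n. Cck (94.8, 7.15, 122, 95.2 and 45.5 cpm) and Cpe (109, 7.79, 138, 109 and 61.5 cpm), closest to Scg5, had the same lowest and highest mice. Other genes named here did not, such as Kcnh6, which was lowest in mouse 12.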

How the data were processed

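RNA was sequenced from 10 sorted samples (GUCY2Chi and GUCY2Cmed cells of 5 mice). Per the labels, paired-end reads were aligned with STAR to mm9 by the sequencing provider, whereas gene positions in the table overlap GRCm38 models for 99.9% of 37624 symbols and NCBIM37 (mm9) models for 9.73% of 28528, so GRCm38 is used here. The counting tool, its strand setting and the annotation are not given in the sources used here. The deposited counts are whole reads per gene, and the deposited FPKM values were computed by the authors' provider with a length that is not given. The authors' own comparisons (limma 3.40.6 and edgeR 3.26.8, per the labels) hold fold changes and p-values and were not used, nor were 10 columns of per-sample values in them.

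Counts were filtered (over 0.5 cpm in at least 3 libraries), scaled by TMM factors and tested with the quasi-likelihood test of edgeR 4.0.16 without a mouse term, with Benjamini-Hochberg adjustment over all genes tested and a threshold of 0.01. A mouse block, limma-voom (limma 3.58.1), DESeq2 1.42.0, other scalings and filters, omission of libraries and a forebrain covariate were alternatives. The covariate was the log2 of the summed cpm of the forebrain list plus 0.5, centred on its mean. Libraries with the same number are taken to come from the same mouse and so to be pairs. This is inferred from the library names and from the sorting of each mouse into both groups. The correlations of same-number deviations from the group means were -0.07, -0.17, 0.27, -0.10 and 0.05. Those of differently numbered libraries ran from -0.50 to 0.55. Single values were compared by exact permutation over libraries and, added after the data were seen, within mice (SciPy 1.17.1, pseudocount 0.5 cpm). Each SE of an edgeR fit is the absolute log2 fold change divided by the square root of the quasi-likelihood F statistic. In data simulated for the 15703 genes without a mouse effect, 100 genes were changed 2-fold and 100 were changed 4-fold. There edgeR called 3 of 100 genes changed 2-fold, 34 of 100 changed 4-fold and 0 unchanged genes. The same counts were 1, 31 and 0 for limma-voom and 27, 72 and 22 for DESeq2. Far more genes were called in the real data than were changed in the simulation, so these rates need not hold for the real comparison. A gene that did not pass in edgeR can still differ between the groups. Promoter windows are RefSeq's. All 8 granins are named, in each list up to 4 genes with the smallest adjusted p among those called (in shorter lists any tested gene), and the 3 genes most like each granin. A gene of the marker lists was left out and is not reported here. The members and lists were chosen with earlier results of these data known, and the study itself names Chga among its leading genes. Depth limits levels that rest on few counts.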

Additional observations from a re-analysis of the deposited data

Results flagged for a closer look

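The level of Vgf in the GUCY2Chi library of mouse 7, 92.5 cpm, stood apart from the other 4 GUCY2Chi libraries (29.2 to 46.9 cpm). Its gap to the nearest library was 0.721 of the whole range, above Dixon's 95% critical value for 5 samples. This was 1 of 16 groups of 5 libraries examined (8 genes in both groups), and chance alone flags about 1 in 20 such groups. Without that library the log2 fold change of Vgf was 3.52 (adjusted p = 0.00701 from edgeR).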

How the results depend on the processing

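Over 180 log2 fold changes of the 8 granins under the alternatives, all were above 0 and 175 stayed on their side of the threshold. Those that did not were Vgf, lost in 3 (the replicate block in edgeR, the omission of the GUCY2Cmed library of mouse 15, and that of mice 12 and 15), and Pcsk1n, called in 2 (the omission of the GUCY2Cmed library of mouse 7, and the forebrain covariate). The count of granins called higher was 5 to 8, with 5 of 6 where 2 granins were left out by the filter of 10 counts in every library or by removal of the 50 most abundant genes. With the replicate block (paired by mouse) in edgeR, 1294 of all genes were higher and 779 lower, in place of 2186 and 1381. Other counts that moved were 557 lower without TMM, which shifted the median log2 fold change of all genes by 0.29, 2235 lower in DESeq2, and 3367 higher and 2767 lower at an adjusted p under 0.05. Leaving out 1 library at a time gave 1636 to 2534 higher and 512 to 1609 lower. Of the other dense-core vesicle genes 41 were higher, but 27 where 10 counts were required in every library. With exact permutation within mice (the pairing as a block, added after the data were seen), 0 of 8 granins and 0 of 7 ratios to Chga had p under 0.05, in place of 8 and 4, since 5 pairs cannot reach it. The causes of the other changes were not tested. The block changed no other granin call. GUCY2Cmed levels of Scg2, Scg3, Scg5, Vgf and Resp18 in mouse 7 rest on 0 to 20 counts.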
